A study of Drosophila melanogaster with 2 samples.

Results

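The 5 GATA factor genes of Drosophila, pnr, srp, grn, GATAe and GATAd, and ush, which encodes a partner protein of GATA factors, were examined for binding of the zinc-finger protein Senseless-2 in embryos. These 6 of 13968 protein-coding genes were chosen from the measured peak counts and signals themselves, so their counts and levels are given as a description, with no test. All 6 symbols were found in the Ensembl annotation, and all 6 genes had the same coordinates in the RefSeq annotation of Release 6 (dm6), the build of the peak lists. A peak was given to a gene when its summit fell within the gene or the 2 kb before it, together called the gene's domain. The data were 2 biological replicates of 1 group: whole embryos of mixed stages, 0 to 24 h old, from transgenic flies that express Senseless-2 fused to eGFP, with chromatin sonicated to 200 to 800 bp and precipitated with an antibody against GFP. The signal therefore averages all cells of the embryo, and comes from the tagged protein. No second condition and no control library was analysed here, so each comparison is between genes, between lists or between replicates.

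GATA factors are zinc-finger proteins that bind DNA at sites with the core GATA. In the fly embryo, serpent (srp) is needed for blood cells, fat body and endoderm, pannier (pnr) for dorsal ectoderm and heart, GATAe for the differentiating midgut, and grain (grn) in the nervous system and in organ shape. U-shaped (ush) is the fly member of the Friend of GATA family: it attaches to Pannier or Serpent and changes what they do at their targets. Senseless, the paralog of Senseless-2, acts in sensory organ development and binds DNA with the core AAATCA.

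The sequences below were chosen from the member sites. They show the strongest peak at ush, the strongest ush peak of the conservative list and the 4 conservative ush summits with a GATA site. The srp promoter peak and a grn peak with both kinds of site follow. That grn peak was in the thresholded list of replicate 2 alone. The choice favours windows with a site: of the 11 conservative member summits 5 had neither kind, and none of those is printed. Each sequence is a summit with 50 bp on either side, read from Release 6 (dm6) with RefSeq names. It is given 5′ to 3′ on the strand of the gene, which is plus for ush and srp and minus for grn. Capitals mark a GATA site, taken as AGATAA or AGATAG or TGATAA or TGATAG on either strand, or AAATCA on either strand.
ush, 4.9 kb from its first start, chr2L:481048-481148, no site of either kind: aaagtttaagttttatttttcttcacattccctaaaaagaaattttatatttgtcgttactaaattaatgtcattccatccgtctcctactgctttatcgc
ush, 8.3 kb, chr2L:484443-484543, GATA site: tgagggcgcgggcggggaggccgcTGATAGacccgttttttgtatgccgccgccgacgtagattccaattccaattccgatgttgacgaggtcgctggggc
ush, 19.8 kb, chr2L:496018-496118, AAATCA on the minus strand: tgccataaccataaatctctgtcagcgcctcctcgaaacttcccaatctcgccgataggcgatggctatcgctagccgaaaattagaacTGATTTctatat
ush, 44.1 kb, chr2L:520307-520407, GATA site: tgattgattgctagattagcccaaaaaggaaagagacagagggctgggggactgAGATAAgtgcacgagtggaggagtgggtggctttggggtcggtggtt
ush, 44.6 kb, chr2L:520774-520874, GATA site: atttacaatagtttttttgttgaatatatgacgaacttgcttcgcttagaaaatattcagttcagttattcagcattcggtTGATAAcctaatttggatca
ush, 45.9 kb, chr2L:522020-522120, GATA site on the minus strand: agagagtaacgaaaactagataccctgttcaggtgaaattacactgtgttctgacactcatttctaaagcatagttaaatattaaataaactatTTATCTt
srp, 333 bp before its first start, chr3R:15985769-15985869, GATA site on the minus strand: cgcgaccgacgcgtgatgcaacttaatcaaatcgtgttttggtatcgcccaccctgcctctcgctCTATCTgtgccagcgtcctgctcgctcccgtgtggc
grn, 846 bp after its start, chr3R:8180548-8180648, GATA site and AAATCA: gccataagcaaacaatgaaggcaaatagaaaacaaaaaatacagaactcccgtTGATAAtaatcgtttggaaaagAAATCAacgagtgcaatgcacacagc

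The conservative list, made by the authors from both replicates, held 2883 peaks on the assembled chromosomes with a median signal of 78.6, and the other thresholded list held 3145. The thresholded list of replicate 1 held 1960 peaks and that of replicate 2 held 1636. The ranked lists, which are not cut at the authors' threshold, held 142231 peaks for both replicates, 117153 for replicate 1 and 93828 for replicate 2. Signal is the authors' value per peak, on the scale of its list, so signals were ordered within a list. The authors' score grades how reproducible a peak is, up to 1000, and every peak of the thresholded lists had a score of at least 830. Read depth per library is unknown.

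The ush domain held most of the conservative summits at these genes. It contained 9 of the 11 conservative summits of the 6 members, srp and grn had 1 each, and pnr, GATAe and GATAd had none. Thus 3 of the 6 members had a conservative summit, against 17.9% of all 13968 protein-coding genes, but the choice of members used these counts. In the other thresholded list ush had 8 summits, grn 2 and pnr 1, so again 3 members had a summit, with a background of 19.1%. In the list of replicate 1 ush had 7 summits and no other member had any (background 13.5%). In that of replicate 2 ush had 5, grn 2 and pnr 1 (background 11.9%). GATAe and GATAd had no summit in any of the 4 thresholded lists.

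ush (FBgn0003963, chromosome 2L, 476220 to 540560, plus strand) has 5 annotated transcripts with 4 starts, at 0, 14.6, 47.2 and 47.5 kb, and a domain of 66.3 kb. Its 9 conservative summits lay between 6.6 and 45.9 kb from the first start and spanned 39.2 kb, with 467 to 16146 bp between neighbours. All 9 fell in introns: 3 in the 13.2 kb intron after the first exon and 6 in the 32.1 kb intron between 15.1 and 47.2 kb. That is 1.36 summits per 10 kb, against 0.217 on the 5 large chromosome arms. In the ranked list, where most peaks are weak, ush had 15.4 peaks per 10 kb and the arms 10.7. GATAe had more, 16.6, and grn had 13.6, srp 12.0, pnr 11.3 and GATAd none. By count ush shared place 4 among protein-coding genes with Raf, behind CG1677, kirre and sbb with 13 each. Per 10 kb of domain, Raf had 1.79, sbb 1.60, CG1677 1.03 and kirre 0.328. The domains of these 4 other genes ran from 50.4 kb for Raf to 396 kb for kirre, and where domains overlapped a summit was counted in both.

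The strongest peak of the ush domain was in none of the 4 thresholded lists. It lay 4.9 kb from the first start (480967 to 481210), in the 13.2 kb intron, and its signal in the ranked list of both replicates was 793, the 6th highest of that list. In the replicates' own ranked lists it had a signal of 541 (4th highest) in replicate 1 and 286 (11th highest) in replicate 2, with the highest score, 1000, in each. It was thus among the strongest peaks in both embryo samples. It stood 1410 bp from the start of cbt (cabut, FBgn0043364, 476446 to 479688, minus strand), a gene for a zinc-finger transcription factor that lies wholly inside ush. No GATA site and no AAATCA was found within 50 bp of its summit.

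3 further ranked peaks around it also reached the authors' threshold score and were missing from the thresholded lists. The peak at 3.9 kb, 391 bp from the cbt start, had a signal of 189 in the ranked list of both replicates, 115 in replicate 1 and 78.0 in replicate 2. The peak at 4.5 kb, with a GATA site (AGATAA), had 88.3, 72.1 and 63.3 in the same order. The peak at 5.7 kb had 78.5, 53.6 and 31.1. All 4 reached the threshold score in each replicate's ranked list as well. Replicate 1 alone also gave such a peak at 2.9 kb, in the 5′ UTR of cbt, with a signal of 41.4 there and 16.1 in replicate 2.

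Across the assembled chromosomes, 75 ranked peaks at or above the threshold score were missing from the conservative list, 24 of them on 2L. 6 of these lay together from 471359 to 481891: the 4 at ush, and a pair at CG4297 with signals of 51.0 and 160. None of the 4 thresholded lists had a summit between the outermost of the 6, and the nearest conservative summits, at 468886 and 482860, were 14.0 kb apart. Why the lists lack them was not tested. In the genome none of the 21 member sites, 16 of them at ush, had another copy of at least 50 bp at 90% identity. Over the lists, 0.763% of conservative peaks and 14.7% of the 75 missing ones had such a copy.

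Counted with these 4 peaks, ush had 13 summits at the threshold score, the same number as CG1677, kirre and sbb, and none of the protein-coding genes had more. In that list 3 members had a summit, against 18.2% of all protein-coding genes. The single-replicate ranked lists at the same score gave 12 summits at ush in replicate 1 and 9 in replicate 2. All 4 added peaks were nearest to the start of cbt, at 391, 991, 1410 and 2203 bp. Those at 3.9, 4.5 and 4.9 kb lay within the 2 kb before cbt. By the same rule they therefore fell in the domain of cbt as well as in that of ush.

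The conservative peaks of the 13.2 kb intron were moderate. The summit at 6.6 kb had a signal of 44.3 (place 2774 of 2883), with 28.3 in replicate 1 and 22.7 in replicate 2, and was in neither replicate's thresholded list. The summit at 8.3 kb had 108 (place 855), with 61.7 and 44.6, and carried the GATA site TGATAG. The summit at 9.7 kb had 81.2 (place 1372), with 49.2 and 30.6. The peaks at 8.3 and 9.7 kb were in all 4 thresholded lists. Replicate 1 gave a further thresholded summit at 9.9 kb with a signal of 19.3, with both TGATAG and AAATCA within 50 bp. The only thresholded summit of replicate 2 nearby had a signal of 30.6 and lay between the 9.7 and 9.9 kb summits, so in that sample the pair could not be told apart.

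The 32.1 kb intron held the strongest ush peak of the conservative list and the one whose ratio of replicate 1 to replicate 2 was lowest among the members. This peak (495920 to 496215, 19.8 kb from the first start) had a signal of 149, place 462 of 2883. In replicate 2 its signal was 89.7, place 209 of 1636, and in replicate 1 it was 58.0, place 1056 of 1960. It stood relatively higher in replicate 2. It was the only conservative ush summit with AAATCA, whose centre lay 41.5 bp from the summit, near the edge of the window. The nearest annotated start, 4189 bp away, was that of lncRNA:CR46258, a non-coding gene inside ush.

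The remaining 5 conservative summits of that intron lay in its later part, towards the starts at 47.2 and 47.5 kb. The summit at 36.0 kb had 95.4 (place 1065), with 63.1 in replicate 1 and 33.1 in replicate 2, where it missed the thresholded list with a score of 469. The summit at 40.0 kb had 104 (place 904), with 63.6 and 38.8. Both had neither kind of site within 50 bp. A group of 3 summits followed, each with a GATA site. At 44.1 kb the signal was 49.4 (place 2690), with 28.1 and 29.2, and neither replicate's thresholded list held it. At 44.6 kb it was 127 (place 638), with 88.8 and 37.2, and all 4 thresholded lists held it. At 45.9 kb it was 57.9 (place 2314), with 40.3 and 26.1, in neither replicate's thresholded list. The other thresholded list added a peak at 46.8 kb with a signal of 48.4, 463 bp from an ush start.

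**Figure D1:**
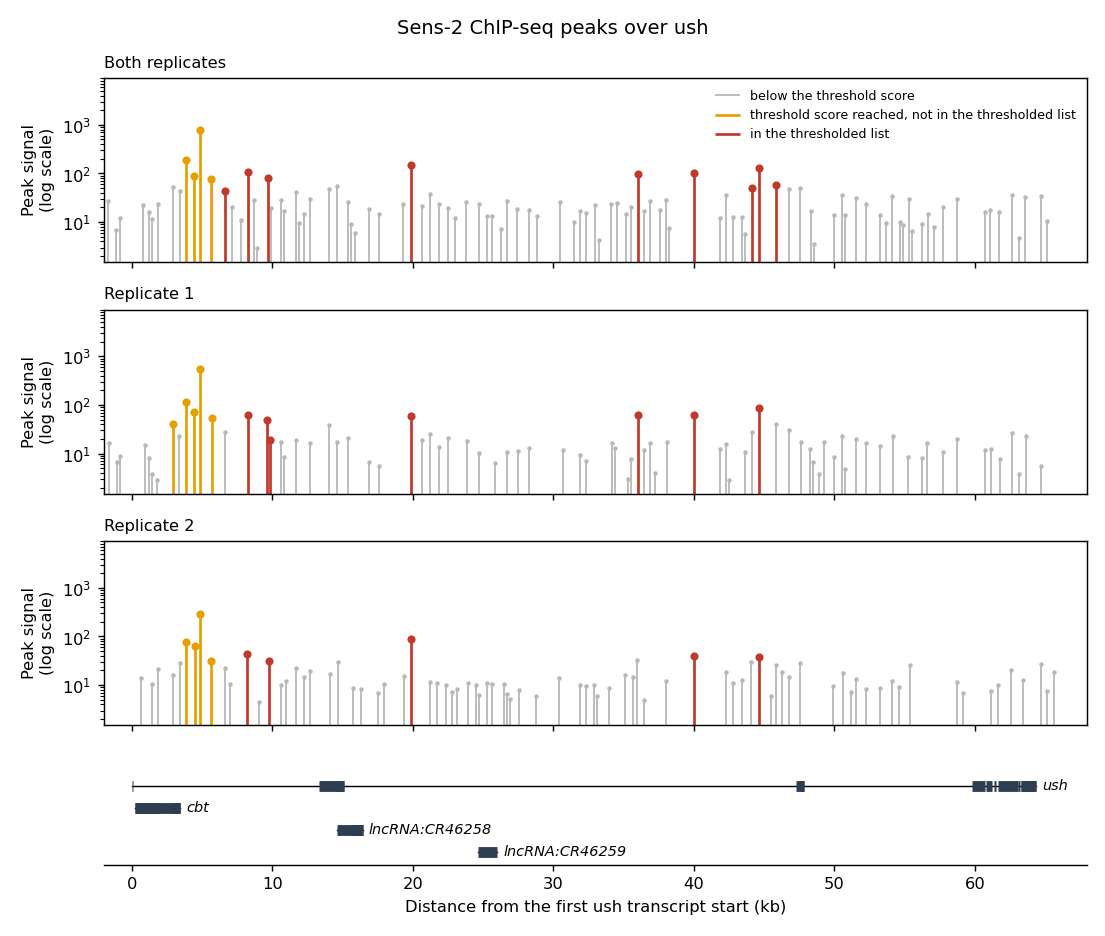
Signal of every ranked peak over ush (log scale) against distance from its first transcript start in kb, in the ranked list of both replicates, of replicate 1 and of replicate 2, with exons as boxes below. Red peaks are in the conservative list (top panel) or in that replicate's own thresholded list (lower panels), orange peaks reach the threshold score of 830 but are not in that list, and grey peaks score lower; the highest peak, at 4.9 kb, is orange in all panels, with signals of 793, 541 and 286.

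Each GATA factor gene had at most 1 conservative peak. Per 10 kb of domain srp had 0.502 and grn 0.277, beside 0.217 on the arms, and the other 3 had none. With 1 summit in a gene such a rate is set by the length of the domain, so no more is read from it. srp (FBgn0003507, chromosome 3R, 15986152 to 16004085, plus strand) had 1 conservative peak, at 15985671 to 15985966, with its summit 333 bp before the first start. Its signal was 62.7, place 2069 of 2883, with 42.1 in the ranked list of replicate 1 and 20.0 in that of replicate 2. It was in the conservative list alone: the scores in the single replicates were 31 and 232, far under 830. The GATA site AGATAG lay on the minus strand within 50 bp of the summit. The other ranked peaks of srp had a signal of at most 44.2, and the median of its 24 was 16.7, against 16.2 for the whole list.

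pnr (FBgn0003117, chromosome 3R, 16026079 to 16041796, plus strand) had a peak 35 bp after its first start. It was in the other thresholded list, made from both replicates, with a signal of 50.6 (place 2780 of 3145) and a score of 1000. The thresholded list of replicate 2 held it with 27.9 and a score of 919. In replicate 1 the promoter peak had a signal of 19.0 and a score of 40, and in the ranked list of both replicates a score of 461, so the conservative list left it out. Of the replicates' own thresholded lists, only that of replicate 2 held the pnr promoter peak.

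GATAe (FBgn0038391, chromosome 3R, 16009105 to 16019133, plus strand) lies between srp and pnr, 5.02 kb after srp and 6.95 kb before pnr. Its 20 ranked peaks had a highest signal of 34.6, at a score of 401, upstream of its first start and near the start of lncRNA:CR42839. The highest signal was 22.0 in replicate 1 and 17.0 in replicate 2. The median of the 20 was 18.9, above the 16.2 of the whole list, so ranked peaks were present but none reached the threshold score. From the first start of srp to the end of pnr, 55.6 kb with all 3 GATA genes, the conservative list had 0 summits. The srp promoter peak lay just outside. At the 0.217 summits per 10 kb of the 5 arms few would fall in that length, so no more is read from the 0.

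grn (FBgn0001138, chromosome 3R, 8147368 to 8181444, minus strand) had its conservative peak on the start, at 8181292 to 8181587 with the summit 4 bp inside the gene. Its signal was 61.5, place 2115 of 2883, with 28.8 in replicate 1 and 37.6 in replicate 2. Only replicate 2 reached the threshold there, with a score of 1000 against 280 in replicate 1. A second peak, 846 bp after the start, was in the thresholded list of replicate 2 with a signal of 35.0. It had 20.1 in replicate 1 and 56.1 at a score of 543 in the ranked list of both, with TGATAA and AAATCA within 50 bp. Another, 9.8 kb after the start, was in the other thresholded list with 51.6, with 36.7 in replicate 1 and 18.5 in replicate 2. The peaks near the start thus had the higher signal in replicate 2, and the peak at 9.8 kb in replicate 1, on scales that differ between the samples.

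GATAd (FBgn0032223, chromosome 2L, 10333734 to 10339185, plus strand) had no peak even in the ranked list of both replicates. It lies in a stretch of 30.4 kb, from 10312837 to 10343245, in which that list has no summit. Stretches at least as long occurred 74 times on the 5 arms, where the median distance between neighbouring summits was 644 bp. The ranked list of replicate 1 had no summit over 31.9 kb there. That of replicate 2 had 8 in the GATAd domain, the highest with a signal of 22.5 and a score of 376. The stretch holds 9 protein-coding genes, GATAd among them, so the missing peaks covered its neighbours Cox10 and SamDC too.

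**Figure D2:**
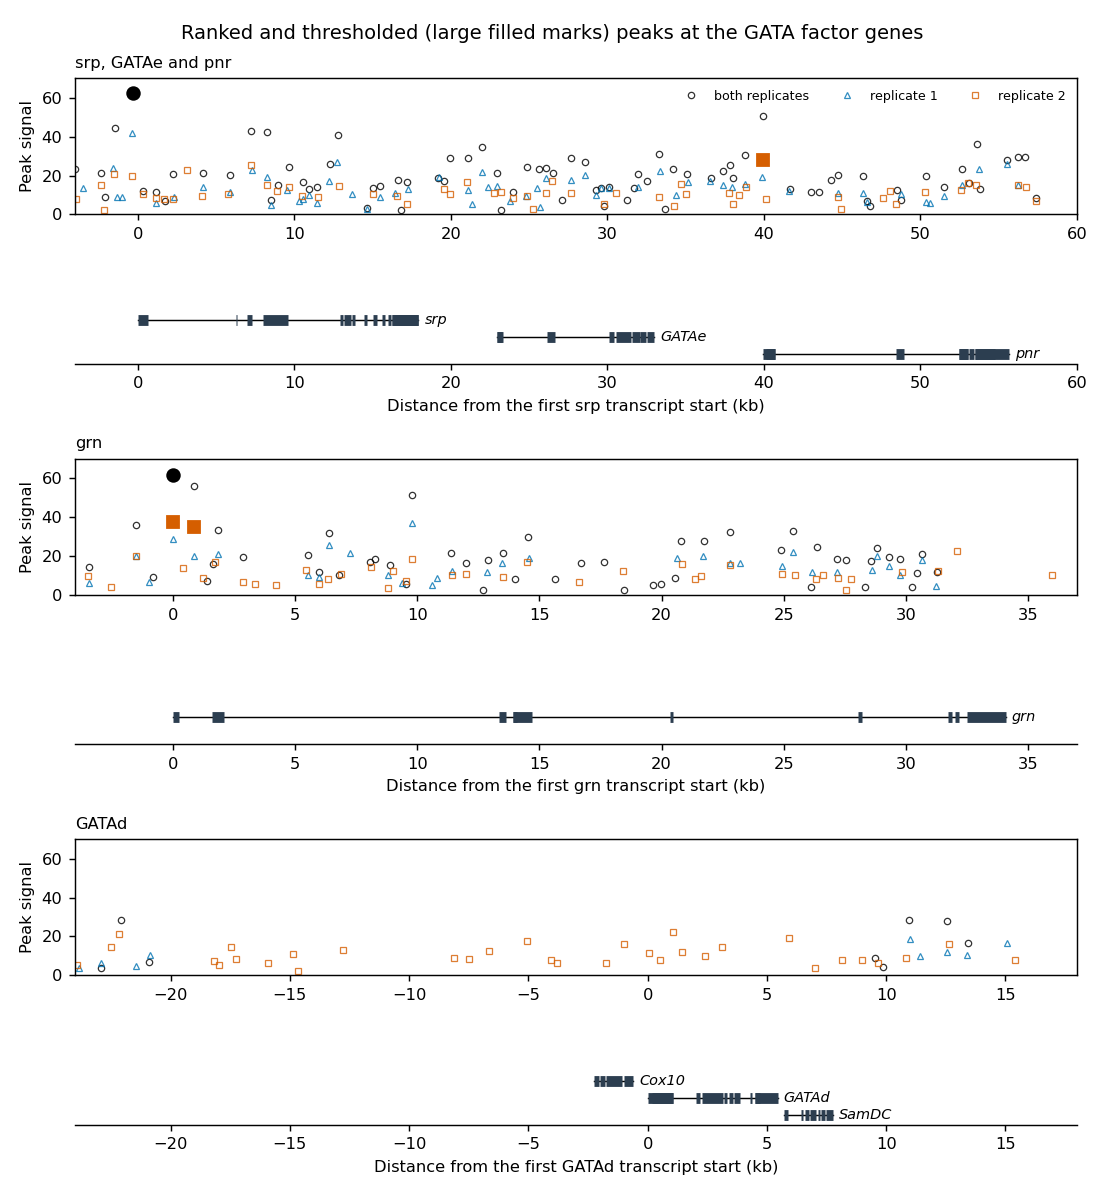
Peak signal against distance in kb from the first transcript start of srp (with GATAe and pnr), of grn and of GATAd; black circles are the ranked list of both replicates, blue triangles replicate 1 and orange squares replicate 2, and exons are boxes. Large filled marks are peaks in the conservative list or in a replicate's own thresholded list: the srp (62.7) and grn (61.5) promoter peaks, and in replicate 2 the pnr promoter (27.9) and 2 grn peaks (37.6 and 35.0); over GATAd, Cox10 and SamDC only replicate 2 has marks, and all 3 lists have marks farther out.

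Of the 11 conservative member peaks, 5 were overlapped by a thresholded peak of both replicates, 2 of 1 replicate and 4 of neither. Over the whole list 40.5% of peaks were overlapped in both. The 5 were the ush peaks at 8.3, 9.7, 19.8, 40.0 and 44.6 kb. The 4 in neither were the ush peaks at 6.6, 44.1 and 45.9 kb and the srp promoter peak, and all 11 were overlapped by a ranked peak of both replicates. The conservative list was itself made from both replicates, so this is no independent check.

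The ratio of replicate 1 to replicate 2 signal had a median of 1.41 over the 2743 conservative peaks with a ranked peak in each sample, with 0.809 and 2.48 at the 5th and 95th percentiles. The replicates' scales differ, so the ratio was read against that median. For 9 of the 11 members it lay within the 5th to 95th percentiles, from 0.962 to 2.39. The ush peak at 19.8 kb had 0.647, with 27 of the 2743 peaks lower, and the grn start had 0.765, with 84 lower. The ush peak at 44.6 kb had 2.39, near the other edge. The ratios of the ush peaks thus ran from 0.647 to 2.39, and whether they differ from each other beyond the noise of single peaks was not tested.

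**Figure D3:**
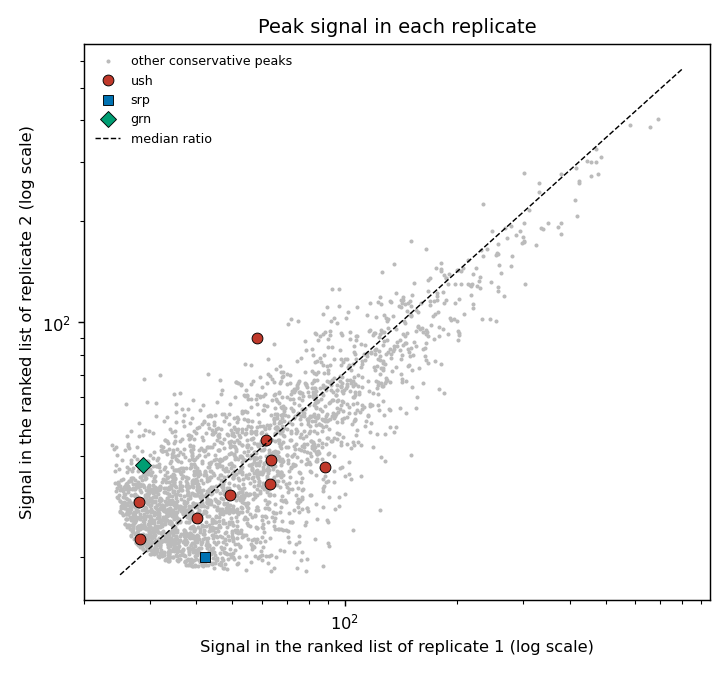
Signal in the ranked list of replicate 1 (x axis) and of replicate 2 (y axis), both on log scales, for the 2743 conservative peaks found in both, with the 9 ush peaks as red circles, srp as a blue square and grn as a green diamond. The dashed line is the median ratio of replicate 1 to replicate 2, 1.41; the ush peak at 19.8 kb (58.0 and 89.7) stands farthest above it among the members.

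A GATA site was present within 50 bp of 5 of the 11 member summits, 4 at ush and the 1 at srp, and AAATCA at 1. Over the conservative list 22.9% of summits had a GATA site and 17.9% had AAATCA. Of the 5766 windows of the same width centred 300 bp to either side, 970 had a GATA site and 578 had AAATCA. No conservative member summit had both kinds of site, and 5 had neither. Within the GATA windows, the centre of the site lay between 6.5 and 46.5 bp from the summit, nearest at the ush peak of 44.1 kb. With 11 summits in 3 genes, the counts are a description of these windows.

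The median GC content of the 11 member windows was 45.5%, from 29.7% to 61.4%, against 35.6% over all conservative summits. The ush peak at 8.3 kb was the richest in G and C, and those at 44.6 and 45.9 kb the poorest. Median signal was 81.2 for the 11 conservative member peaks and 78.6 for the list. The 4 ush peaks that reached the threshold score outside that list are not part of this median.

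Of the 11 member summits 9 lay in introns, all at ush, and 2 within 500 bp of a start of their own gene, at srp and grn. In the conservative list 44.2% of summits were at promoters and 38.0% in introns. Some ush summits were nearer to a start of another gene: 2 to that of cbt, 1 to lncRNA:CR46258 and 1 to lncRNA:CR46259. The summit at 9.7 kb was nearest to a start that ush and lncRNA:CR46258 share, 4926 bp away, and 4 were nearest to a start of ush alone. The gene on which a summit acts was not measured.

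Membership depended on the threshold score at a few places. Just inside it were the ush peak at 6.6 kb (score 863), the srp promoter (910) and the ush peak at 44.1 kb (957). Just outside were the grn peak at 9.8 kb (score 803, signal 51.6) and ush peaks at 62.7 kb (755, 36.5) and 3.4 kb (748, 43.1). Signals on the sides overlapped, and the score grades reproducibility, which is another measure than signal.

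A list of 40 genes by role held genes listed as partners or corepressors of GATA factors and genes of tissues in which these factors act. A link of each gene to GATA factors was not tested. Of the 40, 11 (27.5%) had a conservative summit, against the 17.9% of all protein-coding genes given above. In replicate 1 alone 9 of the 40 had one, with a background of 13.5%, and in replicate 2 alone 6, with a background of 11.9%. The list was drawn up with earlier results of these data known, and long genes hold more summits.

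Among the corepressors, 3 of 4 genes had a summit, beside 17.9% of all protein-coding genes. Mi-2, a chromatin remodeller, had 2, the stronger with a signal of 180 in an intron. HDAC1, a histone deacetylase, had 1 of 111 in the 2 kb before it. That summit lay inside another gene and was nearest to the start of Src64B. CtBP, which binds Ush, had 1 of 66.9 in an intron, and MTA1-like had none. Of the 8 genes listed under Pannier partners only da, which encodes a bHLH protein, had one. It had a signal of 55.6 and lay 137 bp from the start of mRpS7.

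Of the 11 genes of dorsal mesoderm and heart, 3 had a summit. tin, a homeobox gene needed for the heart, had 1 of 186 at 221 bp from its start, with 131 in replicate 1 and 55.2 in replicate 2. Mef2, a muscle regulator, had 4, the strongest 259, which lay 161 bp from the start of Pdrg1. svp, a nuclear receptor gene, had 1 of 58.3, nearest to Sfp87B. The strongest peaks at tin and Mef2 had a higher signal in the conservative list than the strongest at ush there, 149. So did those at bowl (233), Mi-2 (180) and dpp (157), from other role groups.

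In dorsal ectoderm and amnioserosa, 2 of 5 genes had a summit: dpp, the BMP ligand, with 157 in an intron, and tkv, a receptor for Dpp, with 2 of at most 65.7. Of 4 genes listed under endoderm, bowl, a zinc-finger gene, had 3 summits, the strongest 233 at its promoter and with 2 GATA sites. Another, fkh, a forkhead gene, had 1 summit of 88.6 at its promoter. None of the 8 blood cell genes (lz, gcm, gcm2, Pxn, Hml, crq, NimC1 and He) had a summit in the conservative list or in either replicate's thresholded list. Over all protein-coding genes 17.9% had a conservative summit. With 4 to 11 genes a group, the groups were not compared with that share or with each other.

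**Figure D4:**
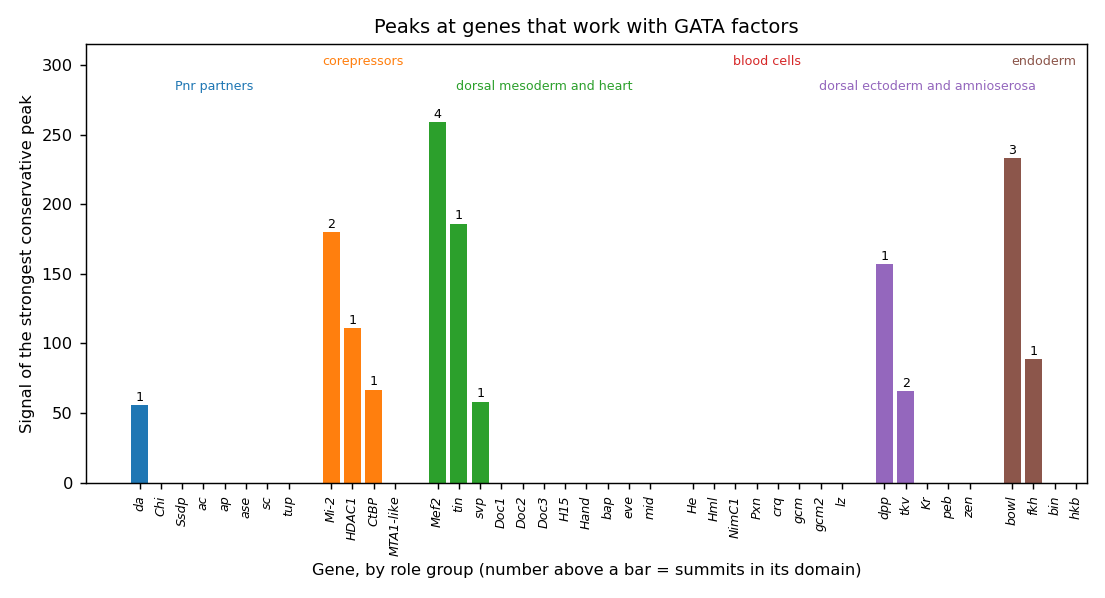
Signal of the strongest conservative peak in the domain of each of the 40 genes listed by role, by role group on the x axis. The number of summits stands above each bar, with no bar where there was none, and a link of each gene to GATA factors was not tested. Mef2 (259), bowl (233), tin (186) and Mi-2 (180) stand highest, and none of the 8 blood cell genes has a bar. Over all protein-coding genes 17.9% had a conservative summit, and the groups were not compared with that share.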

How the data were processed

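ChIP-seq peak lists of 2 embryo samples on dm6 were used, 7 in all: 2 thresholded lists and 1 ranked list made from both replicates, and a ranked and a thresholded list for each replicate. In each the authors deposited a signal for each peak, comparable within a list only, and a score made from the irreproducible discovery rate, with a threshold score of 830. No source used here names the aligner or peak caller. Peaks on assembled chromosomes were used. Genes came from Ensembl release 115, and sequence from Release 6.

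The members and gene lists were chosen with earlier results of these data known. Summits were assigned to domains of gene body and 2 kb upstream, and to a promoter within 500 bp of a start. Replicate overlap was at least 1 bp. Motifs were counted on both strands within 50 bp of a summit. Copies were searched with blastn 2.17.0. No test was made, since values chose the members. Text names all 6 members, up to 4 genes with the strongest peak per role group, the neighbours nearest to member summits, and the 5 genes with at least as many summits as ush. Tables were made with pandas 2.3.3, and the counting was checked on simulated data. A planned look at zinc fingers in the protein sequences was not made, since no protein sequences were used here. Alternatives were other lists, single replicates, windows, domains and motifs, and the ranked list at the threshold score, which was added after seeing the data.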

Additional observations from a re-analysis of the deposited data

Results flagged for a closer look

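The ranked list of both replicates, outside the conservative list on which the counts rest, held 4 peaks at ush that reached the authors' threshold score. Their signals were 189 at 3.9 kb from the first start, 88.3 at 4.5 kb, 793 at 4.9 kb and 78.5 at 5.7 kb. By signal the peak of 793 was 2nd among the 75 such peaks. No control sample was analysed here, so they were set against the score of 830 and not against a background level.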

How the results depend on the processing

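The number of member summits, 11, ran from 7 to 8 when 1 replicate was left out. It fell to 6 both with peaks at or above the median signal and when each summit went to the nearest transcript start. In the latter count the ush summit at 9.7 kb went to lncRNA:CR46258, which shares that start with ush. The number of member summits was 15 with the ranked list at the threshold score, an alternative chosen after seeing the data. All 11 peaks, in place of 5, were overlapped in both replicates when ranked lists were used. Summits with a GATA site, 5 of 11, came to 2 in a window of 51 bp, 8 in 201 bp and 1 for GATAAG. They came to 3 of 11 in the other thresholded list, 3 of 7 without replicate 2 and 4 of 8 without replicate 1. Summits with AAATCA, 1 of 11, came to 0 in a window of 51 bp and 3 in 201 bp. They came to 3 of 7 without replicate 2 and 2 of 8 without replicate 1. Shares over all summits are not given for these other windows, motifs and lists, so the counts are not read against a background. Promoter summits, 2 of 11, came to 1 within 250 bp, 0 of 7 without replicate 2 and 2 of 8 without replicate 1. Network genes with a summit, 11, came to 7 with the gene body alone and to 6 to 9 with a replicate left out. Of the alternative values of these counts 20 stayed within 1.5 times and 17 did not. No paired analysis was possible because there was 1 group. Read depth per library is unknown, so a missing peak is not shown to be an absent one.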
